A study of Mus musculus with 235 samples.

Results

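The Cyp3a genes Cyp3a11, Cyp3a13, Cyp3a16 and Cyp3a25, which encode cytochrome P450 enzymes of the Cyp3a family, were examined in liver RNA of 31 inbred mouse strains given vehicle or isoniazid. They are 4 of the 18146 genes that a probe set of 1 symbol measured. The genes were chosen by name as a family, with the strain levels and isoniazid responses measured on these arrays already known. The strains described animal by animal were selected on their extreme means and differences. Strain levels and strain differences are therefore given as a description. The tests over all genes that follow do not count as independent evidence about these genes.

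Animals were female mice of 8 to 10 weeks, and RNA came from the left lobe of the liver. Isoniazid, an antituberculosis drug that can injure the liver, was given by oral gavage at 100 mg/kg once a day for 3 days. Vehicle animals received sterile water in the same way, and tissue was collected 24 h after the last dose. The strains are inbred and carry no engineered allele according to the labels. They comprised 13 strains that the submitters coded as developing steatosis under isoniazid and 18 that did not. Each strain had 4 vehicle animals (124 in all). The 111 isoniazid animals were 4 per strain in 22 strains, 3 in 5 strains and 2 in 4 strains, because 13 animals died. Every animal is a separate sample according to the labels, with 1 array each.

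Cyp3a enzymes sit in the endoplasmic reticulum of hepatocytes and enterocytes and oxidise drugs, steroids and bile acids with electrons supplied by P450 oxidoreductase and cytochrome b5. Their genes are known to be switched on by the nuclear receptors PXR (Nr1i2) and CAR (Nr1i3), which bind pairs of AGGTCA-like hexamers together with the partner RXR. In mouse liver, Cyp3a11 and Cyp3a25 are adult forms, Cyp3a16 is best known as a fetal and neonatal form, and Cyp3a41 and Cyp3a44 are known as female-predominant forms. Cyp3a13 is expressed in liver and intestine.

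All of these genes lie on mouse chromosome 5. In the order of the annotation, Cyp3a57, Cyp3a16, Cyp3a41b, Cyp3a41a, Cyp3a44, Cyp3a11, Cyp3a25 and Cyp3a59 stand next to each other. Cyp3a13 stands apart, between Pilrb2 and Gjc3. The 250 bases before the annotated start are shown for the 4 members and for Cyp3a44, because Cyp3a16 and Cyp3a44 varied together across strains. They are RefSeq sequences of assembly GRCm38.p6, written 5′ to 3′ on the gene's strand, which is the minus strand in each case. Capitals mark the hexamers AGGTCA and AGTTCA on either strand. The windows are chr5:145879855-145880104 for Cyp3a11, chr5:146009619-146009868 for Cyp3a25, chr5:145469724-145469973 for Cyp3a16, chr5:145805875-145806124 for Cyp3a44 and chr5:137921620-137921869 for Cyp3a13.
Cyp3a11: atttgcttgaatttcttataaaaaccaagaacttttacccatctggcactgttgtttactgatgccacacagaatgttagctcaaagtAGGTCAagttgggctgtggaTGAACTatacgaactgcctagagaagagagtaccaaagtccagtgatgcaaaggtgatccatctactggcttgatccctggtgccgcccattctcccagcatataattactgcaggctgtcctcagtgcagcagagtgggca
Cyp3a25: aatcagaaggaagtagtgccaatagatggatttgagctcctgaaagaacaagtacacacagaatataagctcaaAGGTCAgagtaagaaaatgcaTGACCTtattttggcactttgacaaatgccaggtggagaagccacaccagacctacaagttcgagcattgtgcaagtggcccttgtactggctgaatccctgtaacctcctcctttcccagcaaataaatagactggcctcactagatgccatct
Cyp3a16: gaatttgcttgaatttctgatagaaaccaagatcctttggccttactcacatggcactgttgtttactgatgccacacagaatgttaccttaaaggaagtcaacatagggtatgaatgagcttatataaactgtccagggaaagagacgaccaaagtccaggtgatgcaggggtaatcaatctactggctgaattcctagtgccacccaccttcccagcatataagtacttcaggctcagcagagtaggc
Cyp3a44: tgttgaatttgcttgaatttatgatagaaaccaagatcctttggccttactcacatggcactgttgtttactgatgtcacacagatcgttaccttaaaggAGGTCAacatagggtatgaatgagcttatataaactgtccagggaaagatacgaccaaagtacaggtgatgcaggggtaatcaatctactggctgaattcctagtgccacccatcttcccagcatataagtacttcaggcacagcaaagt
Cyp3a13: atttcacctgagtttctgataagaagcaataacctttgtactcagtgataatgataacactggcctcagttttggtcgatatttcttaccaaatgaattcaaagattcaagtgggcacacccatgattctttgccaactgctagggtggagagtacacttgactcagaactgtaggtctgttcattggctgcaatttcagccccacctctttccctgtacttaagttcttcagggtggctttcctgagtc

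The windows of Cyp3a11 and Cyp3a25, the adult forms, each held 2 hexamers facing each other, 14 bases apart in Cyp3a11 and 15 bases apart in Cyp3a25. At least 2 hexamers were present in 3.70% of the 32851 promoter windows of the same length, and at least 1 in 24.2%. No hexamer was found in the windows of Cyp3a13 and Cyp3a16, and 1 was found in Cyp3a44. None of the windows held 2 of these exact hexamers as a direct repeat spaced by 3 or 4 bases. None held them as an everted repeat spaced by 6 or 8 bases either. These are arrangements known for PXR and CAR, and exact matches occurred in 0.012%, 0.024%, 0.009% and 0.012% of all windows. Repeats in which a hexamer departs from these letters were not searched, so their presence is not known. A match describes letters in this window only. Cyp3a16 and Cyp3a44 shared 236 of 246 aligned bases (95.9%). One of the differing bases, A98G with positions counted from 1 at the 5′ end of the Cyp3a16 window, falls in the hexamer of Cyp3a44. Cyp3a16 shared 83.3% of aligned bases with Cyp3a11, 64.6% with Cyp3a25 and 68.1% with Cyp3a13.

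Levels are log2 values per probe set, so a difference of 1 is a 2-fold change, and levels of different probe sets are not compared. Each member had 1 probe set with its symbol alone: 1416809_at for Cyp3a11, 1424973_at for Cyp3a25, 1419523_at for Cyp3a13 and 1421741_at for Cyp3a16. A further probe set measured Cyp3a44 (1426064_at), and another lists Cyp3a41a together with Cyp3a41b (1419704_at). Cyp3a57 and Cyp3a59 were not analysed here. The sequences of these genes are near copies of each other, so probes may also bind RNA of a relative, and this was not tested. Values of all probe sets ran from 1.15 to 14.65, and array medians from 3.96 to 4.21. The spread of values was narrower on 21 arrays (11 vehicle, 10 isoniazid). Of the 235 arrays, 234 were closest to the other arrays of their own strain, and the array labelled NOD/LtJ vehicle animal 3 was closest to NOR/LtJ. A sequence variant of a strain under a probe can lower its signal in all animals of that strain.

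Cyp3a11, the main Cyp3a enzyme of adult mouse liver, had a narrow range of measured levels over strains and treatments. Its values lie near the top of the array's range (highest animal 14.45, highest value of any probe set 14.65), where differences can be understated. Its vehicle means ran from 13.37 in RIIIS/J to 14.14 in KK/HIJ, a 1.70-fold range, with a median SD of 0.11 between the animals of a strain. Strain accounted for 67.4% of the variance among vehicle animals. All 30 pairs of neighbours in the order of vehicle means had overlapping animals.

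The lowest strain for Cyp3a11 was RIIIS/J, with vehicle animals at 13.45, 13.05, 13.50 and 13.49, followed by PWK/PhJ at 13.35, 13.70, 13.68 and 13.48. FVB/NJ came next at 13.82, 13.50, 13.82 and 13.76. The RIIIS/J animals overlapped with those of PWK/PhJ and lay at or below the lowest FVB/NJ animal. At the other end stood KK/HIJ with 14.22, 13.92, 14.30 and 14.12, C58/J with 14.09, 14.02, 14.28 and 14.08, and CE/J with 14.18, 14.01, 14.16 and 14.02. The highest animal of the 3 low strains (13.82) lay below the lowest of the 3 high ones (13.92).

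Over the 31 strains, the Cyp3a11 mean was 13.89 ± 0.16 (SD, n = 31 strains) under vehicle and 13.95 ± 0.18 under isoniazid. The mean difference was 0.06 (SE 0.02, 95% interval 0.01 to 0.11), higher in 23 strains and lower in 8, and it missed the threshold in limma (adjusted p = 0.0591). It passed in limma under 5 of 9 other settings (adjusted p from 0.00574 to 0.170). It also passed without C57BLKS/J, C58/J, KK/HIJ, LG/J or PWK/PhJ (adjusted p = 0.0345 to 0.0470) and without the animals numbered 4 (0.0243). In all of these settings the difference was at most 0.08. With probe sets averaged, dim genes left out or animals as replicates, the Cyp3a11 difference itself stayed the same. There the call changed only through the other genes tested or the measure of spread. Arrays were read on 10 scan dates, and both treatments of a strain shared a date in 33 combinations of strain and date (24 strains). Within those, Cyp3a11 differed by 0.05 ± 0.20 (SD, n = 33 combinations), higher in 22 and lower in 11, with date means from -0.11 to 0.13.

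The highest Cyp3a11 difference was that of C57Bl/6J, with vehicle animals at 13.62, 13.81, 13.78 and 13.88 and isoniazid animals at 14.08, 13.98, 14.19 and 14.06. All of its isoniazid animals lay above all of its vehicle animals, a difference of 0.31 (1.24-fold). SEA/GnJ had 13.67, 14.03, 13.65 and 13.80 under vehicle and 13.97 and 14.15 under isoniazid (0.27). FVB/NJ reached 13.86, 14.13, 13.89 and 14.02 under isoniazid, all above its vehicle animals (0.25). The same separation upward occurred in A/J, BALB/cJ, BUB/BnJ and NOR/LtJ, which made 6 of 31 strains, and downward in 0 strains. Over all genes and strains, the share of such upward separations was 5.04% and of downward ones 4.53%. The most negative Cyp3a11 differences were -0.14 in C57BLKS/J, -0.13 in PWK/PhJ and -0.11 in C58/J, and in these 3 strains the treated and control animals overlapped. C57BLKS/J had isoniazid animals at 13.77, 13.98, 13.44 and 13.83 against 13.91, 13.84, 13.87 and 13.94. PWK/PhJ had 13.79, 13.10, 13.39 and 13.41 under isoniazid. C58/J had 14.07, 14.13, 13.99 and 13.82.

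Cyp3a25, an adult form known to hydroxylate testosterone, had nearly as narrow a range as Cyp3a11. Its vehicle means ran from 12.22 in C58/J to 13.17 in C3H/HeJ (1.94-fold), with a median SD between animals of 0.10, and strain accounted for 80.7% of the vehicle variance. In C58/J the vehicle animals were at 12.26, 12.29, 12.22 and 12.09, in PWK/PhJ at 12.26, 12.48, 12.60 and 12.49, and in C57BR/cdJ at 12.29, 12.57, 12.57 and 12.45. The highest strains were C3H/HeJ with 13.12, 13.38, 13.12 and 13.08, BALB/cJ with 13.10, 13.02, 13.14 and 13.15, and DBA/2J with 13.15, 13.03, 13.03 and 13.03. The 3 low strains did not overlap with the 3 high ones, while all 30 pairs of neighbours overlapped.

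**Figure D1:**
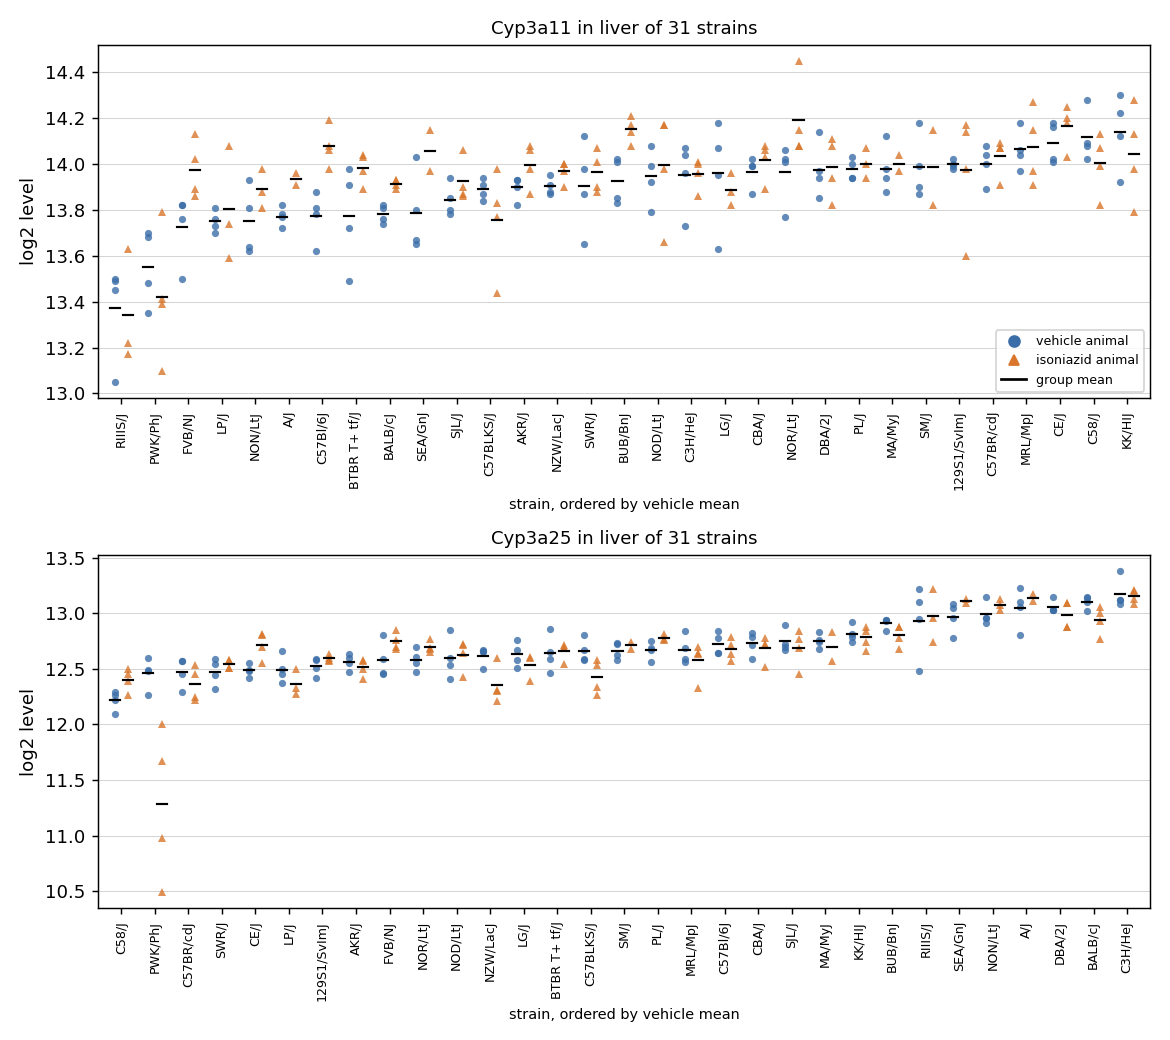
Log2 level of Cyp3a11 (upper panel) and Cyp3a25 (lower panel) in every animal, by strain ordered by vehicle mean, with circles for vehicle animals, triangles for isoniazid animals and black bars for group means. Most strains stay within a narrow band for both genes, and for Cyp3a25 the 4 isoniazid animals of PWK/PhJ lie between 10.49 and 12.00, below its vehicle animals.

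Cyp3a25 was lower under isoniazid in PWK/PhJ, by more than in any other of the 31 strains. The PWK/PhJ vehicle animals were at 12.26, 12.48, 12.60 and 12.49, and the isoniazid animals at 12.00, 10.49, 11.67 and 10.98. The groups did not overlap, and the mean went from 12.46 ± 0.14 to 11.29 ± 0.68 (SD, n = 4 each), a 2.26-fold lower level. The difference of -1.17 was -1.18 with scan date as a term and -1.17 without the arrays of narrow spread. The next most negative differences were -0.26 in NZW/LacJ (isoniazid 12.30, 12.21, 12.31 and 12.60 against 12.65, 12.50, 12.66 and 12.67) and -0.23 in C57BLKS/J (12.53, 12.58, 12.26 and 12.34 against 12.67, 12.58, 12.59 and 12.80). The most positive were 0.23 in CE/J (12.55, 12.80, 12.70 and 12.81 against 12.48, 12.55, 12.49 and 12.42), 0.19 in C58/J and 0.17 in FVB/NJ. In C58/J the isoniazid animals were at 12.50, 12.26, 12.45 and 12.39. In FVB/NJ they were at 12.76, 12.70, 12.68 and 12.85 against 12.46, 12.45, 12.80 and 12.59. Treated animals lay wholly above controls in CE/J, PL/J and SEA/GnJ, and wholly below in PWK/PhJ. Over all genes and strains, 5.04% of combinations separated upward and 4.53% downward. PL/J had 3 treated animals (difference 0.11) and SEA/GnJ 2 (0.14), and with fewer animals a separation arises more easily.

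Over strains, the Cyp3a25 difference was -0.04 (SE 0.04, 95% interval -0.13 to 0.04), higher in 14 strains and lower in 17, and did not pass the limma test (adjusted p = 0.552). Without PWK/PhJ it was -0.0057 (adjusted p = 0.917). Within scan dates it was -0.03 ± 0.21 (SD, n = 33 combinations), lower in 16, with date means from -0.11 to 0.49, and no PWK/PhJ pair shared a date. The limma F test for differences of the response between strains gave F = 4.88 (adjusted p = 1.53e-09). Without PWK/PhJ, F was 1.75 and the adjusted p 0.0818, so this call rests on that strain.

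PWK/PhJ also had the largest general response, with 504 of the 18146 genes differing by more than 1 log2 unit, ahead of NZW/LacJ with 379. In the same strain Hnf4a, a hepatocyte transcription factor, had its lowest difference of all 31 strains (-0.71). The other members differed by -0.13 (Cyp3a11), -0.14 (Cyp3a13) and -1.37 (Cyp3a16) in PWK/PhJ. For Cyp3a11 only C57BLKS/J had a lower difference. Cyp3a44 differed by -0.56, its lowest difference of the strains. In all of these Cyp3a genes treated and control animals overlapped. For Cyp3a16 the overlap came from the vehicle animal at 2.47, on an array of narrow spread. The other controls were at 5.77, 5.20 and 4.85, above the treated animals (2.63 to 3.56). Without arrays of narrow spread the Cyp3a16 difference was -2.07. Albumin (Alb) differed by 0.06, with means of 14.40 and 14.46. Cyp3a11 and Alb lie near the top of the array's range, where differences can be understated. The 9 hepatocyte markers had a median difference of -0.05 in PWK/PhJ, the fifth lowest of the strains. The 9 pericentral markers were at -0.37, the 8 bile acid genes at -0.53 and the 19 upstream factors at -0.35, each the lowest of the strains. The 7 periportal markers were at -0.24, the second lowest, and the 12 macrophage markers at -0.62. Other lists were higher: the 18 measured targets of PXR and CAR were at 0.23 (12 higher, 6 lower), rank 29 of 31 from the lowest. The 5 bile duct markers were at 0.17 (3 higher, 2 lower), rank 30. In bulk tissue, fewer cells of a type and less RNA per cell cannot be told apart. The part of these shifts in the Cyp3a25 difference was not tested.

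Cyp3a13, the member outside the gene cluster, separated strains more sharply than any other member. Strain accounted for 96.0% of its variance among vehicle animals, against 67.4% to 80.7% for the other 3. Vehicle means ran from 8.08 in NOR/LtJ to 11.15 in RIIIS/J, an 8.40-fold range, with a median SD between animals of 0.25. The largest step in the order was 0.69, between FVB/NJ (8.55) and NZW/LacJ (9.25), and it left 13 strains below and 18 above. The FVB/NJ vehicle animals were at 8.48, 8.86, 8.41 and 8.46 and the NZW/LacJ animals at 9.45, 9.07, 9.41 and 9.04. No vehicle animal crossed this step: the highest below was 9.01, in CBA/J, and the lowest above 9.04. A further step without overlap lay between MA/MyJ (9.53) and PL/J (10.16). The other 28 pairs of neighbours overlapped.

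**Figure D2:**
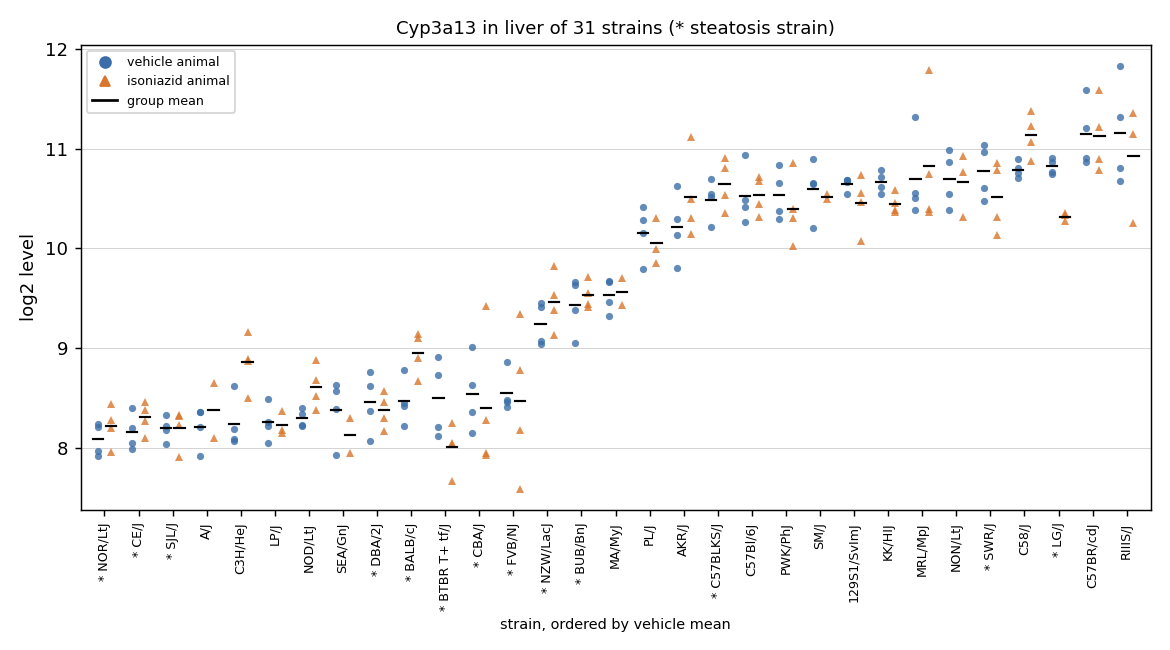
Log2 level of Cyp3a13 in every animal, by strain ordered by vehicle mean, with circles for vehicle animals, triangles for isoniazid animals, black bars for group means and an asterisk before each steatosis strain. A lower set of 13 strains ends at FVB/NJ, and 15 strains from PL/J upward have vehicle means above 10.

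The lowest Cyp3a13 strains were NOR/LtJ, with vehicle animals at 8.21, 7.92, 8.24 and 7.97, CE/J, at 8.40, 7.99, 8.05 and 8.20, and SJL/J, at 8.18, 8.22, 8.04 and 8.33. The highest were RIIIS/J, at 10.67, 11.83, 11.32 and 10.80, C57BR/cdJ, at 10.87, 11.59, 10.91 and 11.21, and LG/J, at 10.76, 10.87, 10.91 and 10.74. Every animal of the high strains lay more than 2 log2 units above every animal of the low strains. Under isoniazid the highest animal of the 13 lower strains was 9.42 and the lowest of the 18 upper strains 9.13, so treated animals of the 2 sets overlapped slightly.

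No shift of Cyp3a13 under isoniazid was detected over strains. The mean was 9.56 ± 1.14 (SD, n = 31 strains) under vehicle and 9.57 ± 1.10 under isoniazid, with a difference of 0.01 (SE 0.04, 95% interval -0.08 to 0.10, limma adjusted p = 0.917), higher in 15 strains and lower in 16. With scan date as a term its sign turned (-0.0087). Within scan dates it was 0.03 ± 0.42 (SD, n = 33 combinations), higher in 19, with date means from -0.68 to 0.31. The limma F test of the difference between strains gave F = 1.33 (adjusted p = 0.294), and it passed without the animals numbered 1 (F = 2.08, adjusted p = 0.0367).

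Among single strains, Cyp3a13 was higher under isoniazid in C3H/HeJ, where the isoniazid animals at 9.16, 8.50, 8.89 and 8.87 compared with vehicle animals at 8.09, 8.62, 8.19 and 8.07 (difference 0.62). The groups overlapped there by 1 animal each, the lowest treated animal lying under the highest control. BALB/cJ had 8.67, 9.14, 9.10 and 8.90 against 8.78, 8.42, 8.45 and 8.22 (0.48). C58/J had 11.23, 11.38, 11.07 and 10.88 against 10.90, 10.70, 10.75 and 10.80 (0.35). The most negative difference was that of LG/J, a high strain, with 10.27, 10.35 and 10.33 against 10.76, 10.87, 10.91 and 10.74 (-0.50). It was the 1 strain of 31 in which treated and control animals did not overlap. Over all genes and strains, 5.04% of combinations separated upward and 4.53% downward. BTBR T+ tf/J had 8.25, 7.67, 8.05 and 8.04 against 8.21, 8.91, 8.12 and 8.73 (-0.49). SWR/J had 10.78, 10.13, 10.31 and 10.85 against 10.60, 10.47, 11.04 and 10.97 (-0.26).

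Cyp3a16, the fetal and neonatal form, was near the floor of the array in some strains and high in others, and it varied widely among animals of 1 strain. Vehicle means ran from 1.69 in C58/J to 8.64 in AKR/J. The lowest means lie at the floor of the array, so no fold is given for this range. The median SD between animals was 1.01 (0.13 to 2.55 over strains), and strain accounted for 78.9% of the vehicle variance. In 6 strains all vehicle animals were under 3 log2 units, and in 12 strains all were at 3 or higher. In all, 45 of the 124 vehicle animals and 47 of the 111 isoniazid animals were under 3. All 30 pairs of neighbours overlapped.

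The lowest Cyp3a16 strains were C58/J, with vehicle animals at 1.84, 1.64, 1.73 and 1.54, SEA/GnJ, at 2.02, 1.84, 1.94 and 1.73, and MA/MyJ, at 2.19, 1.68, 2.11 and 1.66. The highest were AKR/J, at 9.53, 7.98, 8.12 and 8.91, BTBR T+ tf/J, at 8.18, 7.50, 8.33 and 7.96, and RIIIS/J, at 8.59, 6.49, 8.66 and 8.15. The low strains lie at the floor, where a small spread says nothing about expression. In between, some strains held animals near the floor together with animals far above it. In C57BLKS/J 1 vehicle animal was at 1.83 and the others at 7.39, 6.99 and 5.88, and in NON/LtJ the vehicle animals were at 1.73, 4.91, 1.55 and 3.10.

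**Figure D3:**
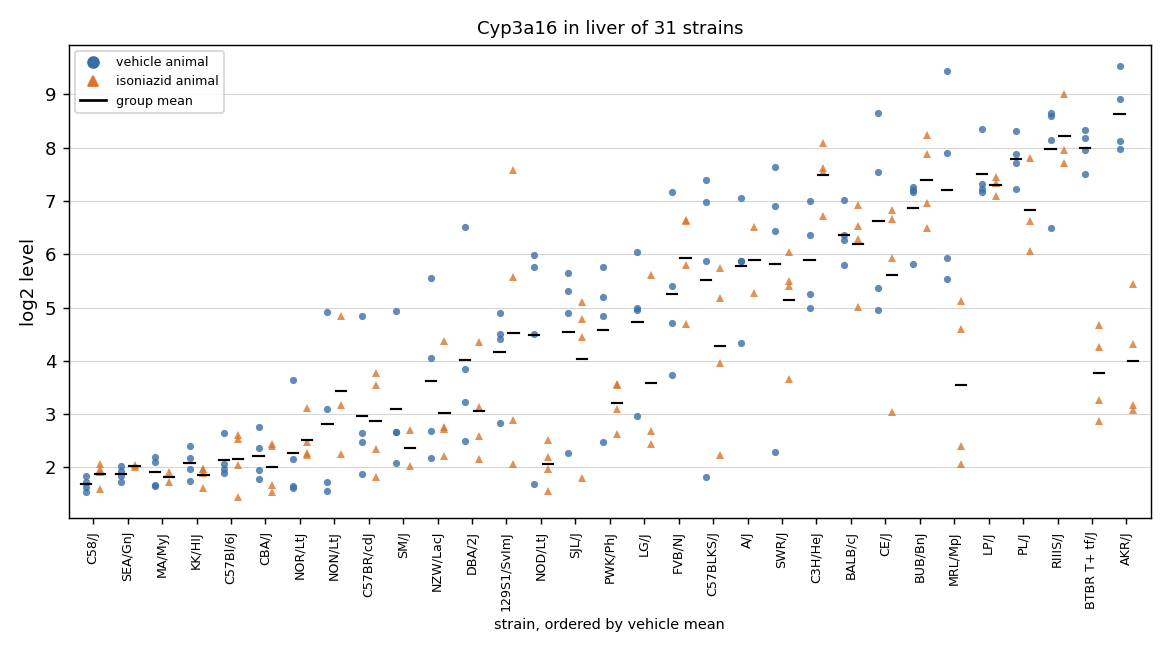
Log2 level of Cyp3a16 in every animal, by strain ordered by vehicle mean, with circles for vehicle animals, triangles for isoniazid animals and black bars for group means. The isoniazid animals of AKR/J, BTBR T+ tf/J and MRL/MpJ lie below all vehicle animals of their strains, while RIIIS/J, LP/J and PL/J, also high under vehicle, have isoniazid animals at 6.06 or higher.

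Under isoniazid, Cyp3a16 was low in 3 strains where it had been high. In AKR/J it went from 8.64 ± 0.72 to 4.00 ± 1.11 (SD, n = 4 each), with isoniazid animals at 5.44, 3.18, 3.07 and 4.32. The difference was -4.63 log2 units. In BTBR T+ tf/J it went from 7.99 ± 0.36 to 3.77 ± 0.84, with isoniazid animals at 4.68, 3.27, 4.26 and 2.88 (difference -4.22). In MRL/MpJ the vehicle animals were at 5.54, 7.91, 9.43 and 5.93 and the isoniazid animals at 2.41, 4.60, 2.06 and 5.13 (difference -3.65). The 3 isoniazid means are low on these arrays and were not shown to be above background, so no fold is given. In each of these strains every treated animal lay below every control. With all arrays kept, no other strain showed this for Cyp3a16. Over all genes and strains, 4.53% of combinations separated downward. BTBR T+ tf/J is a steatosis strain and the others are not. The differences with scan date as a term were -4.57, -4.55 and -3.19. In MRL/MpJ the 3′ minus 5′ difference of the pyruvate carboxylase control was higher under isoniazid by 0.55, the highest value of the 31 strains, and that of beta actin by 0.11. In AKR/J these were 0.27 and -0.07, and in BTBR T+ tf/J 0.04 and -0.13. Their part in the Cyp3a16 differences was not tested.

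RIIIS/J, with a vehicle mean of 7.97, had isoniazid animals at 9.01, 7.95 and 7.72 (difference 0.25), so a high vehicle level did not always go with a lower level under isoniazid. In NOD/LtJ, the next in size, the vehicle animals were at 4.51, 5.77, 1.69 and 5.98 and the isoniazid animals at 2.52, 2.20, 1.55 and 1.98 (-2.42). The value of 1.69 belongs to the array that was closest to NOR/LtJ, and without it the difference was -3.36. Without that array, every treated animal of NOD/LtJ also lay below every remaining control. The most positive differences were 1.59 in C3H/HeJ (isoniazid 7.61, 7.55, 8.08 and 6.72 against 4.99, 6.36, 5.26 and 7.00), 0.68 in FVB/NJ (5.80, 6.64, 4.69 and 6.63 against 5.41, 4.71, 7.16 and 3.74) and 0.60 in NON/LtJ (4.85, 3.17 and 2.26). Treated and control animals overlapped in all 3. Treated animals lay wholly above controls in 0 strains, beside 5.04% of combinations over all genes and strains.

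Over strains, Cyp3a16 was at 4.79 ± 2.14 (SD, n = 31 strains) under vehicle and 4.13 ± 1.95 under isoniazid. The mean difference was -0.66 (SE 0.23, 95% interval -1.13 to -0.19), lower in 20 strains and higher in 11, and it passed the limma test (adjusted p = 0.0404). The median difference was smaller, -0.21. Within scan dates it differed by -0.70 ± 1.85 (SD, n = 33 combinations), lower in 18 and higher in 15, with date means from -3.83 to 2.52, each over 1 to 6 strains. The call was lost when AKR/J, BTBR T+ tf/J, C57BLKS/J, CE/J, DBA/2J, LG/J, MRL/MpJ, NOD/LtJ, PL/J, PWK/PhJ or SM/J was left out, with adjusted p from 0.0502 to 0.0730 and differences from -0.65 to -0.52. It was also lost without the animals numbered 2, 3 or 4 (adjusted p = 0.0528, 0.0960 and 0.0554) and in the 22 strains with 4 treated animals (-0.83, adjusted p = 0.0642). The limma F test of the difference between strains gave F = 2.88 (adjusted p = 0.000199), and it passed with any 1 strain left out (F from 2.12 to 3.22).

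Of the 4 members, 0 passed the limma threshold upward and 1 (Cyp3a16) downward, and over all 18146 genes 10.2% passed upward and 9.85% downward, 20.0% in all. In the F test of differences between strains, 2 of the 4 members passed, where 17.0% of all genes did. The strain responses were among the values known when the genes were chosen, so nothing is read from these counts. Treated animals lay wholly above controls in 6 strains for Cyp3a11, 0 for Cyp3a13, 0 for Cyp3a16 and 3 for Cyp3a25, and wholly below in 0, 1, 3 and 1 strains. The shares over all genes and strains were 5.04% above and 4.53% below.

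**Figure D4:**
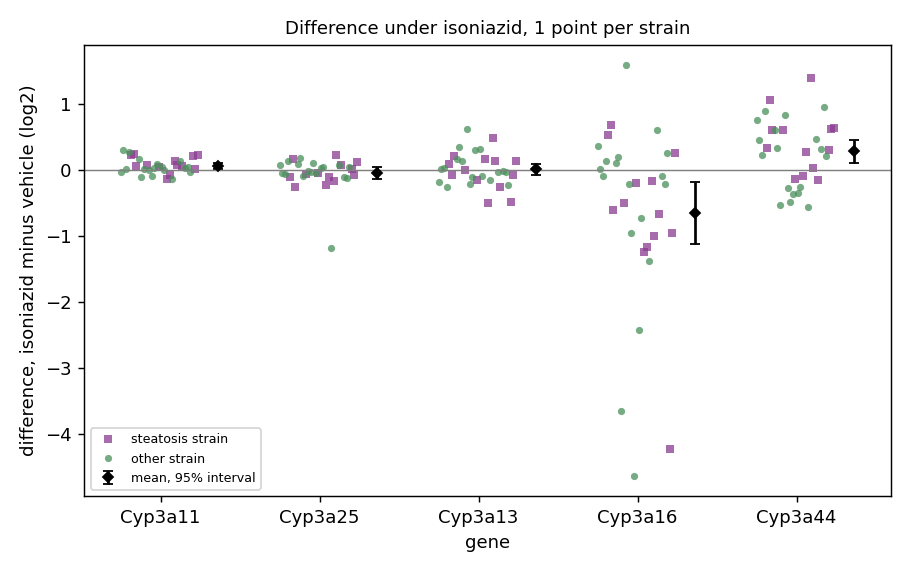
Difference between the isoniazid and vehicle means (log2) for each of the 31 strains, 1 point per strain, for the 4 members and Cyp3a44, with squares for the 13 steatosis strains and circles for the 18 others. Diamonds with bars give the mean over strains and its 95% interval, which lies below 0 for Cyp3a16 (-1.13 to -0.19) and above 0 for Cyp3a44 (0.11 to 0.45).

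The female-predominant relatives in the same cluster gave other values. Cyp3a44 rose, from 7.35 ± 1.00 to 7.64 ± 1.12 (SD, n = 31 strains), a difference of 0.28 (SE 0.09, limma adjusted p = 0.0151), higher in 21 strains and lower in 10. In the 22 strains with 4 treated animals the adjusted p was 0.0822. Its most positive difference was that of BALB/cJ, at 9.08, 9.26, 9.47 and 8.90 under isoniazid against 7.97, 7.93, 7.61 and 7.62 (1.39). The probe set shared by Cyp3a41a and Cyp3a41b had a mean difference of -0.04 ± 0.72 (SD, n = 31 strains), lower in 17 strains.

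In the 3 strains where Cyp3a16 was far lower under isoniazid, Cyp3a44 overlapped between treatments. In AKR/J the Cyp3a44 animals were at 7.50, 8.20, 8.45 and 7.56 under isoniazid and at 9.15, 7.46, 8.18 and 8.34 under vehicle, with overlap (-0.36). In BTBR T+ tf/J Cyp3a44 differed by 0.31 and in MRL/MpJ by -0.53, again with overlapping animals. The shared Cyp3a41 probe set differed by -0.27, 0.04 and -0.48 in these 3 strains. The 12 macrophage markers had median differences of -0.79 in AKR/J, -0.20 in BTBR T+ tf/J and -0.10 in MRL/MpJ, and the 9 hepatocyte markers of 0.008, 0.059 and -0.002. Cyp2b10, a target of CAR, differed by 2.29, 1.01 and 0.84 in the same strains. The 18 measured targets of PXR and CAR outside the Cyp3a family, Cyp2b10 among them, had medians of -0.04, -0.03 and 0.05 there. In these strains 9, 8 and 10 of the targets were higher and 9, 10 and 8 lower.

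Across the 31 vehicle means, Cyp3a16 and Cyp3a44 varied together (Pearson r = 0.68, Spearman rho = 0.68, and r = 0.65 without AKR/J and BTBR T+ tf/J). Their differences under isoniazid had r = 0.55 (rho = 0.66). Among the 235 animals, deviations from the group mean had r = 0.57. The shared Cyp3a41 probe set had r = 0.45 with Cyp3a16 and 0.53 with Cyp3a44 over these deviations, and Cyp3a11 with Cyp3a25 had 0.47. Other pairs of the 4 members lay between -0.14 and 0.11 over these deviations. Cyp3a11 and Cyp3a44 were opposed across vehicle means (r = -0.57, and -0.33 without RIIIS/J and PWK/PhJ). These correlations are descriptions: the points share arrays and normalisation, and probes of near copies may share targets.

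**Figure D5:**
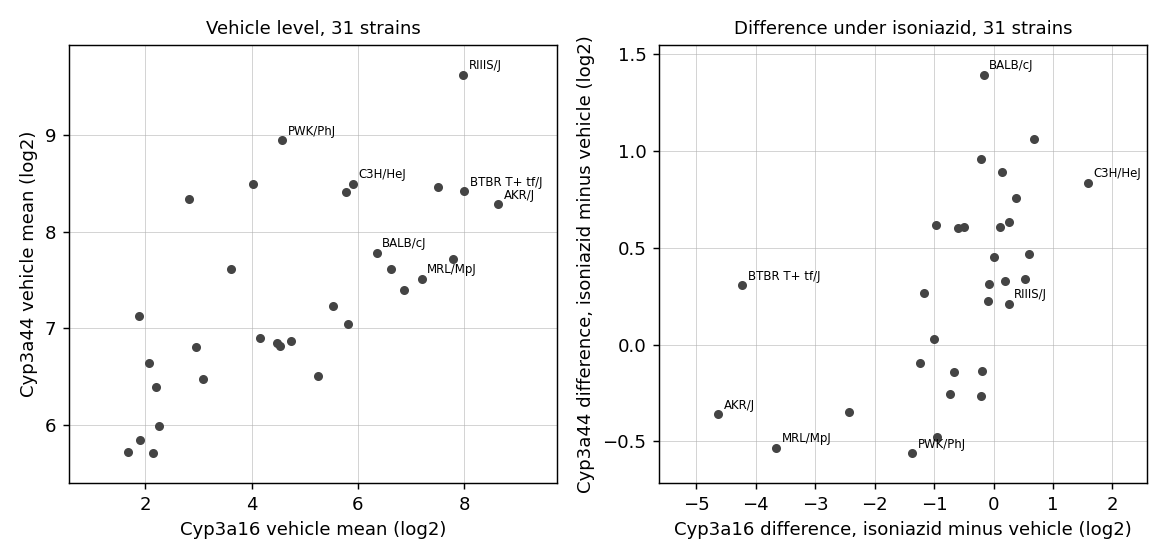
Cyp3a44 against Cyp3a16 over the 31 strains, 1 point per strain, as vehicle means (left, log2) and as differences between isoniazid and vehicle means (right, log2). The vehicle means rise together (r = 0.68), and in the right panel AKR/J and BTBR T+ tf/J have Cyp3a16 differences below -4 with Cyp3a44 differences of -0.36 and 0.31.

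Outside the family, the genes most like each member were found by Pearson r over the 31 strains, among all 18146 genes. For Cyp3a11 the differences under isoniazid were closest to those of Mgst1, a microsomal glutathione transferase (r = 0.87), Ttr, the transthyretin gene (0.84), and Cat, the catalase gene (0.78). They were at 0.72 or higher also without C57Bl/6J and SEA/GnJ. For Cyp3a25 the closest were Hadh (0.86), a mitochondrial enzyme of fatty acid oxidation, F13b (0.86), a clotting factor subunit, and Ugt2b36 (0.85), a glucuronosyltransferase. Without PWK/PhJ and CE/J these were 0.32, 0.42 and 0.43, and in PWK/PhJ the 3 genes differed by -1.27, -1.48 and -1.73.

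For Cyp3a13 the closest differences were those of Lcn2 (r = 0.70), which encodes the acute phase protein lipocalin, Il1r1 (0.68), the interleukin receptor, and Nnmt (0.68), nicotinamide methyltransferase. In C3H/HeJ, the strain with the highest Cyp3a13 difference, Lcn2 differed by 2.01, Nnmt by 1.95 and Il1r1 by 0.08. Its vehicle means were closest to those of Cldn22 (0.71), Krt78 (0.65) and Zscan21 (0.65). Cldn22 and Krt78 had low mean levels on these arrays, 3.3 and 2.1. Zscan21 lies on the same chromosome with 6 genes between it and Cyp3a13. Of the measured genes near Cyp3a13, Gjc3 had r = 0.42, Azgp1 0.35, Pilrb1 -0.43 and Pilra -0.48 with its vehicle means. For Cyp3a16 the closest vehicle means were those of Kcnip3 (0.69), Cryaa (0.65) and Clic3 (0.64), and the closest differences those of Mgat4a (0.68), 4930429F11Rik (0.63) and Bambi-ps1 (0.61). Without AKR/J and BTBR T+ tf/J these were 0.71, 0.66 and 0.62 for the vehicle means and 0.51, 0.52 and 0.48 for the differences. Clic3, 4930429F11Rik and Bambi-ps1 had low mean levels of 3.4, 2.4 and 2.7. For Cyp3a11 and Cyp3a25 the closest vehicle means were those of Suds3 (0.63) and Clec11a (0.72).

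Among the regulators known to act on Cyp3a genes, more fell than rose. PXR (Nr1i2) differed by -0.03 (adjusted p = 0.647 in limma, lower in 17 strains) and CAR (Nr1i3) by -0.10 (adjusted p = 0.101, lower in 24 strains). Of these 2 receptors, CAR passed in limma with animals as replicates (adjusted p = 0.0147), and its difference varied between strains in the F test (adjusted p = 0.0443). Animals as replicates leave out the spread of the response between strains, so that pass is not a call over strains. Of the 19 measured nuclear receptors and liver factors upstream of Cyp3a genes, 1 rose and 7 fell, where 10.2% of all genes rose and 9.85% fell. Their median difference was -0.04, against 0.001 over all genes. Differences of single genes are means over all 31 strains, and strain counts give the strains that differed in that direction. Hnf4a fell by 0.20 and was lower in 31 of 31 strains (limma adjusted p = 1.29e-06). Nr0b2, the corepressor SHP, fell by 0.58 (lower in 28 strains) and Foxa3 by 0.23 (lower in 26). Nr3c1, the glucocorticoid receptor, fell by 0.13 (lower in 24).

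Of the 18 other targets of PXR and CAR that were measured, 8 rose and 1 fell, with a median difference of 0.07. Over all genes 10.2% rose and 9.85% fell, the shares to set beside each list here. Slco1a4, an organic anion transporter, rose by 0.53 in 31 of 31 strains, Alas1, the first enzyme of heme synthesis, by 0.80 in 28 strains, Aldh1a7 by 0.59 in 30 strains and Cyp2b10 by 0.87 in 25 strains, while Abcc4 fell by 0.37. Of the other 19 P450 genes of xenobiotic metabolism, 6 rose, among them Cyp2c54 (0.35), Cyp2d22 (0.17) and Cyp2d10 (0.15), and 4 fell, among them Cyp2c70 (-0.66), with a median of -0.04. Of the 6 redox partners, 0 rose and Pgrmc1 (-0.10), Pgrmc2 (-0.11) and Cyb5b (-0.12) fell, with a median of -0.05. P450 oxidoreductase was not analysed here.

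Growth hormone signalling sets the sex-dependent P450 pattern of the liver. Of 15 genes of this signalling and of sex-biased liver expression, 2 rose and 6 fell, with a median of -0.08. Here too, the shares over all genes are 10.2% that rose and 9.85% that fell. On average over strains, the receptor Ghr fell by 0.22 (lower in 28 strains), Stat5b by 0.13 (lower in 28) and Cyp17a1 by 0.76 (lower in 24). Cyp7b1 rose by 0.32 (higher in 26 strains). Of the 8 genes of the bile acid axis, Cyp8b1 rose by 0.46 and Cyp27a1 (-0.30), Slc27a5 (-0.23) and Abcb11 (-0.18) fell, with a median of -0.10.

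Liver cell markers were examined in the same way, beside the 10.2% of all genes that rose and the 9.85% that fell. The mean of the 9 hepatocyte markers ran from 12.49 to 13.63 over vehicle animals and from 12.31 to 13.59 over isoniazid animals, so every array carried the defining RNA of liver. Of these markers Cps1 rose (0.17) and Hnf4a fell (-0.20), with a median of -0.03. Of the 9 pericentral markers, where P450 enzymes are most abundant, 3 rose, among them Cyp1a2 (0.34) and Oat (0.28), and 4 fell, among them Slc1a2 (-0.28) and Axin2 (-0.21), with a median of -0.0012. Of the 7 periportal markers Arg1 rose (0.09) and Ctsc fell (-0.34). Of the 12 macrophage markers 9 fell, among them Csf1r (-0.28), Cd5l (-0.28), Lyz2 (-0.26) and C1qc (-0.22), and 0 rose, with a median of -0.22. Of the other markers, 2 of 10 endothelial (Stab2, -0.30, and Kdr, -0.13), 1 of 8 stellate (Reln, -0.15), 1 of 5 bile duct (Sox9, -0.14) and 2 of 7 lymphocyte markers (Cd79b, -0.16, and Ms4a1, -0.13) fell and 0 rose. These are small counts in short lists, beside the 9.85% of all genes that fell. Of 7 intestine markers Fabp2 rose (0.23) and Alpi fell (-0.10). The mean of the macrophage markers ran from 5.71 to 9.63 over vehicle animals and from 5.32 to 9.60 over isoniazid animals. Of the control probe sets, the Gapdh control was higher by 0.29 ± 0.15 (SD, n = 31 strains), and the 3′ minus 5′ difference of pyruvate carboxylase by 0.23 ± 0.20. The same measure for beta actin differed by 0.003 ± 0.085, higher in 15 of 31 strains. Their part in the results for the members was not tested.

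No member passed the test between steatosis and other strains after adjustment over all genes. The vehicle level of Cyp3a13 averaged 9.05 ± 1.01 (SD, n = 13 strains) where steatosis was coded and 9.93 ± 1.11 (n = 18) where it was not, a difference of -0.87 (95% interval -1.64 to -0.11), which excludes 0 before adjustment but did not pass in limma (adjusted p = 0.988 over all genes). Of the 13 steatosis strains, 8 were among the 13 strains below the step in Cyp3a13 and 5 above it. The vehicle difference was 0.48 for Cyp3a16 (95% interval -1.06 to 2.01), 0.02 for Cyp3a11 (-0.10 to 0.14) and 0.0011 for Cyp3a25 (-0.16 to 0.17). The isoniazid response differed by 0.05 for Cyp3a11 (95% interval -0.05 to 0.15), -0.06 for Cyp3a13 (-0.24 to 0.12), -0.10 for Cyp3a16 (-1.06 to 0.87) and 0.02 for Cyp3a25 (-0.16 to 0.19), all at an adjusted p of 1.00 in limma. Over all genes, 0% passed in the response and 0% in the vehicle level. At an unadjusted p under 0.05, limma gave 491 genes for the response and 737 for the vehicle level, and with animals as replicates it called 35 genes for the response. Steatosis is coded per strain, so animals of 1 strain are not independent replicates of it, and nothing is read from these 35 calls.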

How the data were processed

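Liver RNA of 235 female mice was hybridised to Affymetrix arrays after 3′ in vitro transcription labelling. The submitters' processing notes name RMA and Affymetrix Power Tools, without a version, for the log2 values per probe set that the authors deposited. RMA corrects background, gives all arrays 1 distribution and combines the probes of a set. A shift shared by all genes is thereby removed, and low values are compressed. The number of arrays limits the precision.

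Of 44721 probe sets, 34717 had 1 gene symbol, 872 several and 9072 none, and 60 were controls, and 34514 were matched to a gene table by Entrez number. The probe set with the highest mean stood for each of 18146 genes. Per strain, the vehicle mean was subtracted from the isoniazid mean, and the 31 differences were tested with limma 3.58.1 in R 4.3.3 (lmFit, eBayes, two-sided). Strain by treatment differences were tested by an F test in a fit of animals with 173 residual degrees of freedom. Steatosis strains were compared with the others over strains. Adjusted p-values are those of Benjamini and Hochberg over all 18146 genes, with calls under 0.05. The 10 scan dates were tried as a term, and differences were also taken within dates. Promoter windows were aligned with Biopython 1.88. The fits were tested on simulated data.

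The members and gene lists were chosen with earlier results of these data known. Named were the 4 members, related Cyp3a probe sets, the 3 highest and 3 lowest strains per member by vehicle mean and by difference, the 3 genes most like each member, up to 4 passing genes per list with Nr1i2, Nr1i3, Alas1 and Cyp2b10, and annotation neighbours. NOD/LtJ, and the values of list genes in extreme strains, were added after the values were seen. Alternatives covered probe set choice, scan date, animal number as a block, centring, a filter on dim genes, narrow arrays, and left-out animals and strains.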

Additional observations from a re-analysis of the deposited data

Results flagged for a closer look

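Within groups of 4 animals, 12 of 212 combinations of group and member held 1 animal far from the other 3, and chance alone gives about 1 in 20. For Cyp3a11 the distant animal was the lowest in C57BR/cdJ isoniazid (13.91 against 14.07 to 14.09), in NOR/LtJ vehicle (13.77 against 14.01 to 14.06) and in RIIIS/J vehicle (13.05 against 13.45 to 13.50). For Cyp3a13 it was the lowest in 129S1/SvImJ vehicle (10.54 against 10.66 to 10.68) and the highest in FVB/NJ vehicle (8.86 against 8.41 to 8.48). For Cyp3a16 it was the lowest in BUB/BnJ vehicle (5.82 against 7.16 to 7.26) and the highest in LP/J vehicle (8.35 against 7.17 to 7.31). For Cyp3a25 it was the lowest in BTBR T+ tf/J isoniazid (12.54 against 12.69 to 12.71), BUB/BnJ vehicle (12.84 against 12.93 to 12.94) and NZW/LacJ vehicle (12.50 against 12.65 to 12.67, on an array of narrow spread). For Cyp3a25 it was the highest in C3H/HeJ vehicle (13.38 against 13.08 to 13.12) and DBA/2J vehicle (13.15 against 13.03).

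The response to isoniazid differed between strains in the limma F test for Cyp3a16 (F = 2.88, adjusted p = 0.000199) and for Cyp3a25 (F = 4.88, adjusted p = 1.53e-09). The Cyp3a25 value was 1.75 without PWK/PhJ (adjusted p = 0.0818).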

How the results depend on the processing

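The Cyp3a11 difference over strains (0.06) passed in limma with centred arrays (0.067) and with narrow arrays left out (0.069). It also passed with probe sets averaged, dim genes left out or animals as replicates (0.063 each), where the Cyp3a11 difference itself stayed the same. It was 0.055 to 0.069 with each strain and 0.045 to 0.079 with each animal number left out. The Cyp3a16 difference (-0.66) lost its call in the 22 strains with 4 treated animals (-0.83); it was -0.73 to -0.52 with each strain and -0.73 to -0.58 with each animal number left out. The Cyp3a13 difference changed sign with scan date (-0.0087) and without narrow arrays (-0.0022), and was -0.01 to 0.03 with each strain and -0.10 to 0.067 with each animal number left out. Its F value was 0.90 to 2.08 with each animal number left out. That of Cyp3a25 was 1.75 to 5.45 with each strain left out.

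Between status groups no member passed, and values near 0 changed sign. The Cyp3a25 vehicle difference became -0.0031 with centred arrays and -0.00036 without narrow arrays, and was -0.032 to 0.028 with each strain and -0.01 to 0.02 with each animal number left out. The Cyp3a11 vehicle difference was -0.048 in the 22 strains and -0.0079 to 0.037 with each strain and 0.0045 to 0.045 with each animal number left out. The response difference of Cyp3a16 was 0.35 in the 22 strains, -0.33 to 0.20 with each strain and -0.22 to 0.0024 with each animal number left out. That of Cyp3a25 was -0.048 to 0.037 and -0.032 to 0.041, and that of Cyp3a13 -0.10 to 0.039 with each animal number left out. The causes were not tested. Without the array closest to NOR/LtJ, a setting chosen after seeing the data, no member's call changed.

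Animal numbers did not pair vehicle with isoniazid animals: deviations from the group means correlated above 0.1 in 23 of 111 same-numbered pairs (median r = -0.02). With the animal number as a replicate block, the Cyp3a16 difference was -0.66 (adjusted p = 0.0405 in limma), 3623 genes were called over strains against 3636, and no member's call changed. With animals as replicates, which leaves out the spread between strains, Nr1i3 passed in limma (-0.10, adjusted p = 0.0147). The F test called 3084 genes, and 1313 to 2194 with each animal number left out.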
